A study of Mus musculus with 6 samples.

Results

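Vascular smooth muscle cells of the mouse hypothalamus were taken from Drop-seq data, a droplet method that counts transcripts per cell from their 3' ends, as unique molecular identifiers (UMIs). A cell counted as a smooth muscle cell when it had at least 3 UMIs summed over Acta2, Tagln and Myh11 and at most 1 UMI summed over Snap25, Syt1, Mog, C1qa, Agt and Dcn, which mark neurons, oligodendrocytes, microglia, astrocytes and fibroblasts. Only cells with at least 300 genes and at most 20% mitochondrial UMIs were considered. This left 164 smooth muscle cells among 9449 passing cells, out of 13994 barcodes. The libraries were 3 from IDOL knockout mice (KO1, KO2 and KO3) and 3 from wild-type mice (WT1, WT2 and WT3), all of strain C57BL/6J and 8 weeks old. The KO libraries gave 23, 28 and 60 smooth muscle cells and the WT libraries gave 16, 12 and 25.

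IDOL, the product of Mylip, is a ubiquitin ligase that marks lipoprotein receptors such as VLDLR and ApoER2 for breakdown. The part of Mylip deleted in the KO mice and the cells that lack it were not given. Nothing stated that each library came from its own animal, so p-values measure the spread between libraries, which may be technical. Library preparation was spread over separate days with the genotypes mixed, but no source ties a library to a day, so day could not enter a test.

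Vascular smooth muscle cells wrap arteries and arterioles and set vessel diameter by contracting. Calcium entering the cytosol activates myosin light chain kinase, which lets smooth muscle myosin pull on actin filaments, while nitric oxide, acting through cyclic GMP, relaxes the cell. Pericytes sit on capillaries, share several markers with smooth muscle cells and hold less of the contractile apparatus. Many contractile genes are controlled by serum response factor (SRF) and its partner myocardin, which bind a short AT-rich element, the CArG box.

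Promoter windows of smooth muscle genes are shown because this element is a known control site of contractile genes, which define these cells. Windows reach from 250 bases before to 50 bases after each gene start and come from RefSeq on build GRCm38.p6. The CArG box was searched as 10 bases, CC then 6 of A or T then GG. The pattern is its own reverse complement in form, so 1 search covers both strands. Capitals mark the matches. Myl9, the regulatory light chain of smooth muscle myosin, held a match that began 161 bases before the gene start, in the window chr2:156775214-156775513 on the plus strand.
Myl9: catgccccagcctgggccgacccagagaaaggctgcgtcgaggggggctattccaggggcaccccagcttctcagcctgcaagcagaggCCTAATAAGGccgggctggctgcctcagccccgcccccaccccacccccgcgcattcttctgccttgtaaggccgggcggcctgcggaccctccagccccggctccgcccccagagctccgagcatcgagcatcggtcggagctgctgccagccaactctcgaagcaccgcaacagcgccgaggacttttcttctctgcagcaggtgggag
Acta2, smooth muscle actin and the leading rule gene, had no exact match in chr19:34255324-34255623 on the minus strand, but it had 2 stretches that were 1 base off. These began 84 and 34 bases before the gene start.
Acta2: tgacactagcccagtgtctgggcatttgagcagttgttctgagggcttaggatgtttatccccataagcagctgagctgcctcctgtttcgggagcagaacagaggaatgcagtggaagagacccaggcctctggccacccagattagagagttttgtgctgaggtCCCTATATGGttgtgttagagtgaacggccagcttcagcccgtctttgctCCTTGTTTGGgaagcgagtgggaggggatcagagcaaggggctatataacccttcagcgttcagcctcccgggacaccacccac

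Shorter stretches are shown for 3 further genes that stood far above other cells in the smooth muscle cells and held an exact match. They are Myom1 (myomesin, an M-band protein of muscle) at chr17:71019433-71019492 on the plus strand, Filip1l at chr16:57549155-57549214 on the plus strand, and Asb2 (a ubiquitin ligase subunit that targets filamins) at chr12:103356031-103356090 on the minus strand. The matches began 99, 62 and 64 bases before the gene start in that order.
Myom1: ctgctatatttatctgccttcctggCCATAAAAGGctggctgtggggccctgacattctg
Filip1l: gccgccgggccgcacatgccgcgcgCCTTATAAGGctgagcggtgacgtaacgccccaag
Asb2: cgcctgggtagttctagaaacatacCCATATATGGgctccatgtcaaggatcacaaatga
Of the 25 genes with the highest ratio of smooth muscle cells over other cells, 21 had a window in the table, 24 windows in all. An exact match was found in 4 of these windows (16.7%), against 535 of all 32851 windows (1.63%). With 1 base off allowed, the shares were 41.7% and 21.1%. In the list of contractile genes, 22 of 24 genes had a window, and 3 of 26 windows (11.5%) held an exact match. The windows of the endothelial list (9 windows) and of the pericyte list (10 windows) held 0. So few windows would mostly hold 0 at the rate of all windows too, so they set no contrast. With 1 base off allowed, their shares were 22.2% and 20.0%. Of the 3 rule genes, Tagln and Myh11 had no window. A match describes the letters only.

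The 164 cells were of 3 kinds when sorted by UMIs of other cell types. The largest group, called core cells here, was 119 cells with at most 1 UMI of the endothelial genes Cldn5, Flt1, Pecam1, Ly6c1 and Itm2a, at most 1 of the ependymal genes Tmem212, Ccdc153 and Foxj1, and at most 1 of haemoglobin. Another 40 cells, the endothelial-bearing ones, had more than 1 UMI of the endothelial genes, and 39 of them had at least 6. The last 5 cells, the ependymal-bearing ones, had more than 1 UMI of the ependymal genes. These groups were set after the data had been seen, and the genes that set them are no finding.

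The 3 kinds differed in depth and in how much of their RNA came from the rule genes. Core cells had a median of 614 UMIs (378 to 1665), and Acta2, Tagln and Myh11 made up 2.69% of their UMIs. Endothelial-bearing cells had a median of 2336 UMIs and a rule-gene share of 0.663%. Ependymal-bearing cells had a median of 10092 UMIs and a share of 0.0516%, with only 3 to 17 rule-gene UMIs each. Core cells were thus 72.6% of the smooth muscle cells but held 29.5% of their 293675 UMIs, while the 5 ependymal-bearing cells held 23.8%. Sums over all 164 cells are weighted towards these deep cells, so core-cell values stand beside the results where core cells allowed them.

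**Figure D1:**
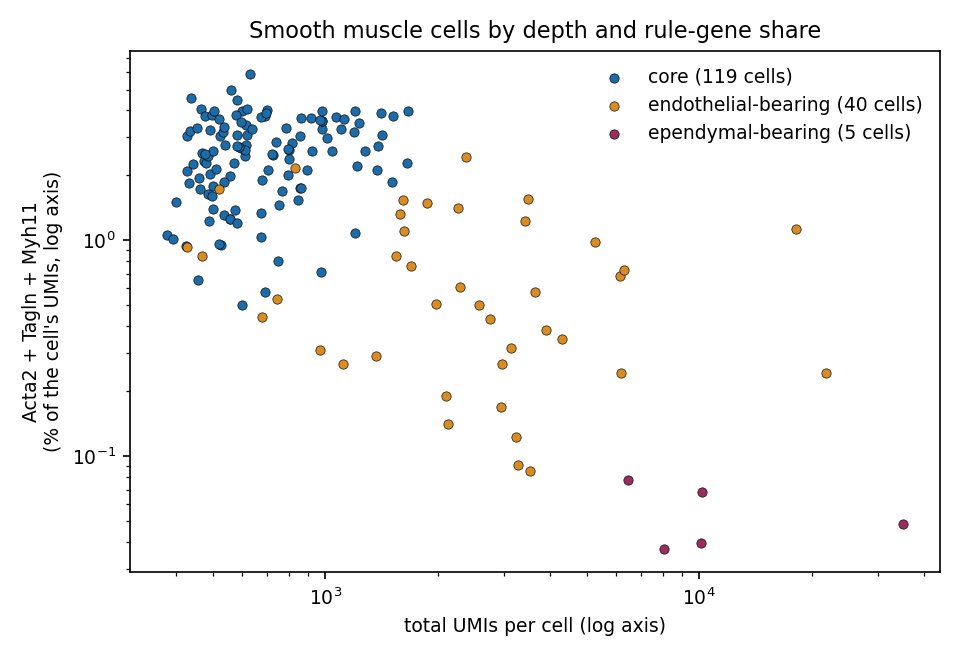
Each point is 1 of the 164 smooth muscle cells, with total UMIs on the x axis and the percent of UMIs from Acta2, Tagln and Myh11 on the y axis, both on log axes. The 119 core cells lie at the upper left, at 1665 UMIs or fewer, and the 5 ependymal-bearing cells at the lower right.

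The mix of kinds differed between libraries. Ependymal-bearing cells held 40.7%, 58.4% and 10.4% of smooth muscle UMIs in KO1, KO2 and KO3, and 27.8%, 0% and 0% in WT1, WT2 and WT3. In KO2 this was a single cell of 35035 UMIs. Endothelial-bearing cells held 22.0%, 20.6% and 61.9% of the UMIs in the KO libraries, against 33.5%, 40.1% and 74.2% in the WT libraries. Core cells numbered 18, 21 and 41 in the KO libraries and 12, 10 and 17 in the WT libraries.

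**Figure D2:**
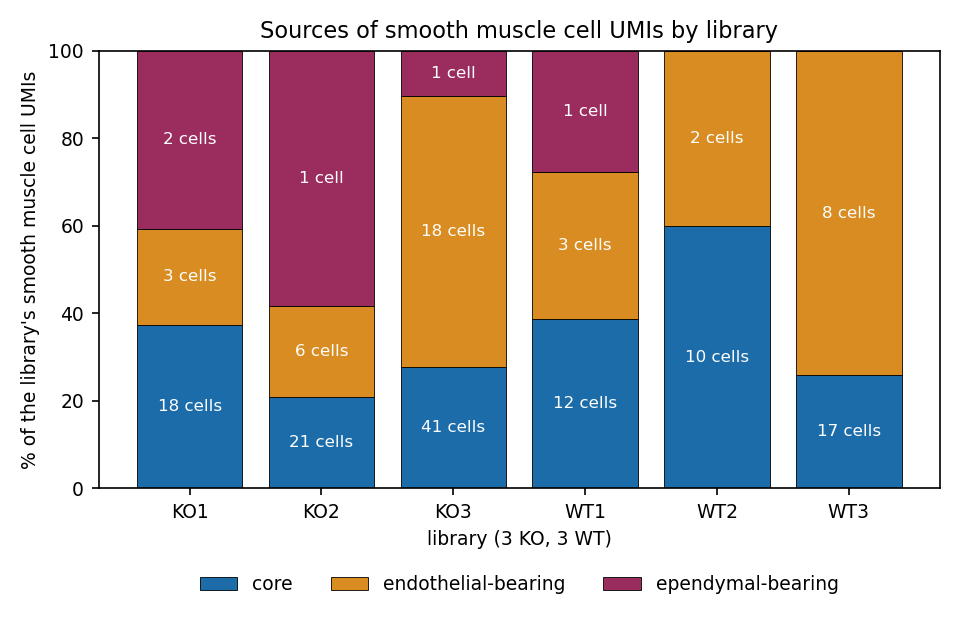
Stacked bars give the percent of each library's smooth muscle UMIs (y axis) that came from core, endothelial-bearing and ependymal-bearing cells, with the number of cells written in each part. Ependymal-bearing cells take the largest part in KO1 and KO2 and none in WT2 and WT3.

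The label was checked with 6 smooth muscle genes that the rule did not use, Cnn1, Myl9, Mylk, Lmod1, Des and Tpm2. At least 3 of the 6 were detected in 108 of 119 core cells (90.8%), in 30 of 40 endothelial-bearing cells (75.0%) and in 1 of 5 ependymal-bearing cells. In comparison, 10 of 239 cells of a pericyte gate (4.18%) and 12 of 953 cells of an endothelial gate (1.26%) had 3. These gates required at least 3 UMIs of pericyte genes (Vtn, Kcnj8, Abcc9, Atp13a5, Higd1b) or of the 5 endothelial genes and at most 1 rule-gene UMI. That limit also keeps out cells rich in contractile genes, so the low shares in the gates are partly built in. The median depths of the gates were 919 and 686 UMIs, above that of core cells. By the share of cells with 3 markers, the data bear the label out for the core cells, and for the ependymal-bearing cells they do not.

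The rule's threshold cut through a thin range. The 9 cells with exactly 3 rule-gene UMIs had a median of 1116 UMIs, and 1 of them carried 3 of the 6 markers. The 27 cells just outside, with 2 rule-gene UMIs, had a median of 2248 UMIs, and 4 of them carried 3 markers. A further 30 cells had enough rule-gene UMIs but failed the exclusion genes, and 19 of these carried 3 markers. The 7 endothelial genes that set no group (Pltp, Slco1a4, Slc2a1, Cdh5, Ly6a, Bsg and Abcb1a) summed to 330, 0 and 329 CPM in core cells of KO1, KO2 and KO3 and to 89.3, 161 and 491 CPM in those of WT1, WT2 and WT3. Over all smooth muscle cells the same sums were 4359, 3686 and 8142 CPM in the KO libraries and 6848, 2601 and 8189 CPM in the WT libraries, and they were 12049 to 17762 CPM in the endothelial gate. The 6 oligodendrocyte genes, of which the rule used Mog, summed to 982 to 2416 CPM in core cells and to 11681 to 24887 CPM in other cells of the 6 libraries. The 9 fibroblast genes, of which the rule used Dcn, had 128 UMIs over all 164 cells, 56 of them in core cells. They summed to 0 to 1354 CPM in core cells and to 1782 to 8186 CPM in other cells of the 6 libraries. The 7 microglia genes, of which the rule used C1qa, had 9 UMIs, 2 of them in core cells. Of these lists Col1a1, Lum, Pdgfra, Cx3cr1, P2ry12 and Tmem119 had 0 UMIs over all 164 cells. Doublet calling marked 116 of the passing cells (1.23%), none of them a smooth muscle cell, and none of the 3 barcodes shared between libraries belonged to one.

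The genes that stood highest over other cells included genes of contraction and calcium handling. The cells were chosen by expression, so levels against other cells are descriptions with no test. Among genes with at least 30 UMIs in the smooth muscle cells and a UMI in 5 libraries, the 25 with the highest ratio over the other 9285 passing cells had ratios of 32.0 to 604, in CPM, UMI counts of a gene scaled to the total UMIs of the cell group. The list of contractile genes held 8 of the 25. In all 6 libraries 23 of the 25 were higher in smooth muscle cells than in other cells, and 21 were when core cells were taken alone. The genes were chosen by their ratio over other cells, so these counts were largely set by the choice. With the libraries pooled, 24 of the 25 had a higher level in core cells than over all smooth muscle cells.

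The highest ratio belonged to Pln, phospholamban, which restrains the calcium pump of the sarcoplasmic reticulum (chromosome 10, 53337667 to 53345987, plus strand, GRCm38). It had 691 CPM in all smooth muscle cells and 1.14 CPM in other cells. In core cells Pln stood at 1730 CPM, with 1980, 1832 and 1537 CPM in KO1, KO2 and KO3 and 1161, 2893 and 1682 CPM in WT1, WT2 and WT3. The groups overlapped. A Pln UMI was present in 73 of 119 core cells (61.3%), against 0.210% of the endothelial gate, where background RNA would show. The pericyte gate had 0 Pln UMIs, which allows up to 10.3 CPM.

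Filament and myosin genes followed. Tpm2, a tropomyosin that lies along actin filaments (chromosome 4, 43514711 to 43523765, minus strand), had 7692 CPM in core cells, 85.8 CPM in the pericyte gate and 14.5 CPM in other cells. A Tpm2 UMI was found in 115 core cells (96.6%) and in 3.15% of the endothelial gate. Myl9 had 10598 CPM in core cells, 940 CPM in the pericyte gate and 63.2 CPM in other cells, and it was in 114 core cells. Mylk, the myosin light chain kinase, had 3425 CPM in core cells and 230 CPM in the pericyte gate. Lmod1, a leiomodin that nucleates actin filaments, had 2422 CPM and 37.8 CPM in the same cell groups. Cnn1, calponin, was sparse, with 32 UMIs in 23 core cells and 0 in the pericyte gate. Its level was 369 CPM in core cells and 0.741 CPM in other cells.

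Other genes of the 25 have roles beyond the filaments. Aoc3, an amine oxidase on the vascular cell surface, had 311 CPM in core cells and 1.08 CPM in other cells. Olfr558, an odorant receptor gene, had 1073 CPM in core cells, 17.2 CPM in the pericyte gate and 2.56 CPM in other cells. An Olfr558 UMI was in 54 core cells (45.4%) and in 0.315% of the endothelial gate. Mrvi1, a target of cyclic GMP-dependent kinase, had 392 CPM in core cells and 37.8 CPM in the pericyte gate. Crip1, a small LIM-domain protein, had 8949 CPM in core cells, 518 CPM in the pericyte gate and 105 CPM in other cells. Itga8, an integrin subunit, had 288 CPM in core cells and 13.7 CPM in the pericyte gate. Gm13861 lies inside Cald1 on the opposite strand. The strand counted was not given, so its 634 CPM in core cells cannot be told apart from Cald1 reads.

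Gkn3 was the exception among the 25. This gene, known from arterial endothelium of the mouse brain, had 837 UMIs in the smooth muscle cells, all in endothelial-bearing cells. Core cells had 0, which allows up to 34.6 CPM, while endothelial-bearing cells reached 6102 CPM and the endothelial gate had a Gkn3 UMI in 7.14% of cells. Mgp, matrix Gla protein, an inhibitor of vessel calcification, also lay mostly in endothelial-bearing cells, with 1138 of its 1267 UMIs there and 128 in core cells.

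**Figure D3:**
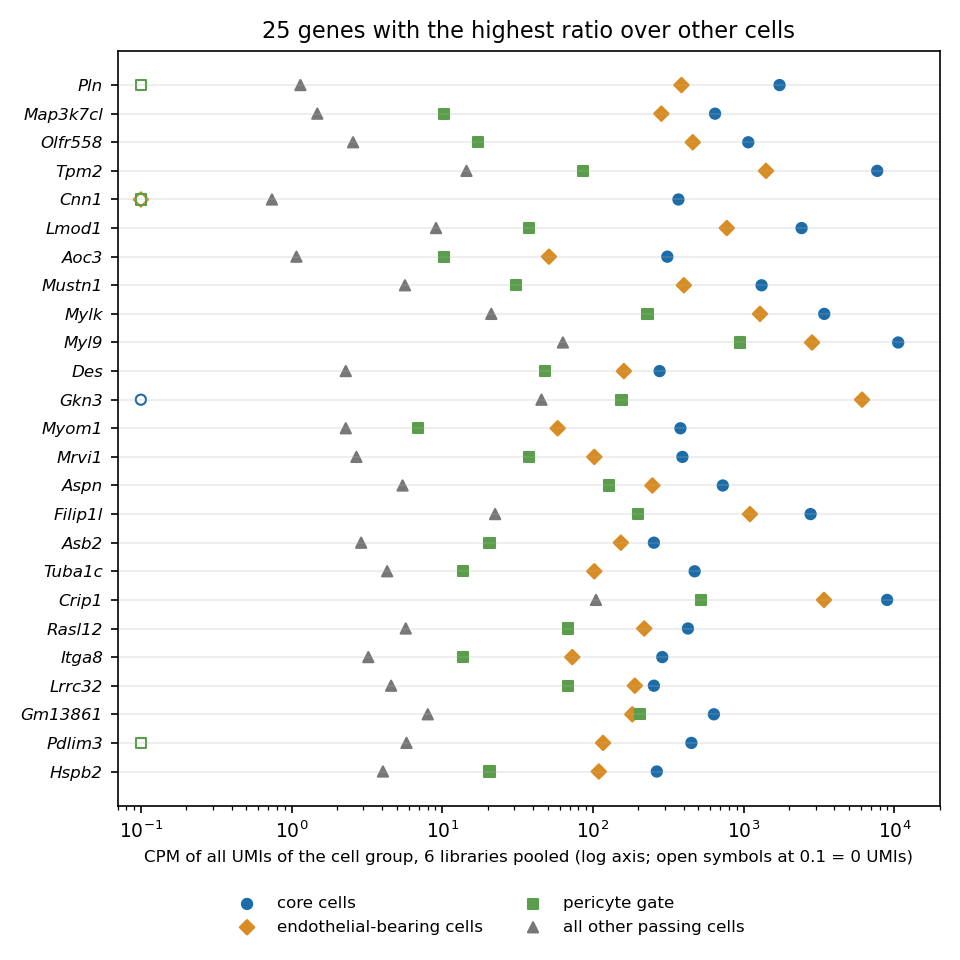
CPM (x axis, log, 6 libraries pooled) of the 25 genes with the highest ratio over other cells, in core cells, endothelial-bearing cells, the pericyte gate and all other passing cells. Core cells stand highest for every gene except Gkn3, which has 0 UMIs in core cells, and open symbols mark 0 UMIs.

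Core cells and the pericyte gate shared markers but differed in others. The gate set no limit on endothelial genes, while core cells were chosen to hold almost none of 5 of them. The 12 endothelial genes summed to 23986 to 33214 CPM in the pericyte gate of the 6 libraries and to 0 to 561 CPM in core cells. Differences between core cells and this gate thus include endothelial RNA. Rgs5, a regulator of G protein signalling used as a mural marker, had 3425 CPM in core cells and 6086 CPM in the pericyte gate, and it was in 74 core cells (62.2%). Its share in the endothelial gate, 52.2%, was close to that, so the share alone says little. Of the list of 12 pericyte genes, 4 had 0 UMIs in core cells. These were Abcc9, Kcnj8, Atp13a5 and Anpep, which mark capillary pericytes and had 1, 6, 10 and 1 UMIs in endothelial-bearing cells. The 12 genes together, Rgs5 among them, had 466 UMIs in core cells. They summed to 3432 to 8036 CPM in core cells of the 6 libraries and to 11687 to 17160 CPM in the pericyte gate. The gate was chosen by Vtn, Kcnj8, Abcc9, Atp13a5 and Higd1b, all in this list, so its higher sum is no finding. Notch3, a receptor that maintains mural cells, had 277 CPM in core cells and 141 CPM in the pericyte gate.

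Among the 8 genes highest over the pericyte gate, 5 came mostly from the ependymal-bearing cells. The other 3, Pln, Gsn and Palld, were higher in core cells than in the pericyte gate in all 6 libraries. Gsn, gelsolin, which severs actin filaments, had 680 CPM in core cells and 3.43 CPM in the pericyte gate. Palld, palladin, which bundles actin, had 1165 CPM and 6.87 CPM in the same cell groups. Both gate levels rest on very few UMIs and lie below the 10.3 CPM that a count of 0 allows there. Of the 8 genes lowest against the pericyte gate, 7 were lower in core cells in all 6 libraries. Genes on both sides were chosen by their ratio to the gate, so these directions were largely set by the choice. Slc22a8, an organic anion transporter, had 0 UMIs in core cells and 122 in the pericyte gate. How much of this difference lay in the endothelial RNA of the gate was not tested. Ptgds, prostaglandin D synthase, had 265 CPM in core cells and 6439 CPM in the pericyte gate, with the libraries pooled. The fibroblast list, which holds Ptgds, was uneven in that gate. It summed to 20684 CPM in KO3, 8167 CPM in KO1 and 731 to 1376 CPM in the other libraries.

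Genes of vessel tone were present at lower counts. Gucy1b3 and Gucy1a3, the subunits of the nitric oxide receptor guanylate cyclase, had 900 and 750 CPM in core cells and 491 and 230 CPM in the pericyte gate. Pde5a, which breaks down cyclic GMP, had 542 CPM in core cells and 9.36 CPM in other cells. Npy1r, a receptor for the vasoconstrictor neuropeptide Y, was in 20 core cells (16.8%) and in 0.525% of the endothelial gate. Ednra, the endothelin A receptor, had 15 UMIs in 14 core cells. Agtr1a, Avpr1a and Ptger3, receptors for angiotensin, vasopressin and prostaglandin E, had 0 UMIs over all 164 cells, which allows up to 10.2 CPM. Ednrb, Adra1a and Rgs16 also had 0 UMIs in core cells. The whole list of vasoactive and tone genes, Rgs5 among them, summed to 9901 to 15268 CPM in core cells of the 6 libraries. In the pericyte gate it summed to 7306 to 11262 CPM, so the ranges overlapped. Myocd, myocardin, had 11 UMIs in 8 core cells and 0 in both the pericyte and endothelial gates. Srf had 7 UMIs in core cells.

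Counts varied between core cells. With every core cell thinned to 350 UMIs, the 24 contractile genes took a median of 19 UMIs per cell, with 5 at the lowest and 34 at the highest. The quartiles were 15 and 22. Counting error alone spreads such counts, and its part was not tested. Library medians were 18.5, 19 and 19 in KO1, KO2 and KO3 and 17.5, 17.5 and 20 in WT1, WT2 and WT3. Immediate early and stress genes spread more widely, at a median of 7, quartiles of 1 and 14 and a range of 0 to 29, with 22 core cells at 0. Their library medians were 7.5, 5 and 10 in the KO libraries and 13.5, 5.5 and 1 in the WT libraries, so the genotypes overlapped. Mitochondrial UMIs had library medians of 38.5, 29 and 12 in the KO libraries and 24.5, 21.5 and 21 in the WT libraries.

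The comparison of genotypes asked whether loss of IDOL altered the number or the expression of these cells. Smooth muscle cells made up 1.55%, 1.48% and 3.07% of passing cells in KO1, KO2 and KO3 and 0.840%, 1.15% and 2.14% in WT1, WT2 and WT3. The groups overlapped, at 2.03 ± 0.900% in KO and 1.38 ± 0.681% in WT (SD, n = 3 libraries each; two-sided exact permutation p = 0.4, where 0.1 is the smallest possible). The core share was 1.47% in KO and 1.01% in WT (exact permutation p = 0.4). As a share of the smooth muscle, pericyte-gate and endothelial-gate cells together, smooth muscle cells were 14.7 ± 0.842% in KO and 12.1 ± 3.21% in WT (exact permutation p = 0.4, n = 3 each). The median depth of a smooth muscle cell was 729 ± 128 UMIs in KO and 927 ± 252 UMIs in WT (exact permutation p = 0.3, n = 3 each). In core cells it was 627 UMIs in KO and 752 UMIs in WT (exact permutation p = 0.5). Over all smooth muscle cells it was 268 UMIs higher in KO when cells needed at least 500 genes.

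Mylip itself was too sparse in these cells to check the genotype. All passing cells together had 2, 0 and 0 Mylip UMIs in KO1, KO2 and KO3 and 68, 27 and 44 in WT1, WT2 and WT3. In the smooth muscle cells the KO libraries had 0 UMIs, which allows up to 15.1 CPM, and the WT libraries had 3, all in 2 endothelial-bearing cells of WT3. Core cells had 0 in both genotypes, which allows up to 54.5 CPM in KO and 94.7 CPM in WT. Mylip was kept in the test over all smooth muscle cells despite its low counts, and it did not pass. A difference was not detectable at this depth.

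UMIs were summed per library and tested with edgeR's quasi-likelihood test on 857 genes, and 0 genes passed at adjusted p below 0.05 (0.0% called, lowest adjusted p 0.693). At unadjusted p below 0.05, 58 genes remained (6.77%), of which 41 were higher (4.78%) and 17 lower (1.98%) in KO. DESeq2 called 0, with 20 at unadjusted p below 0.05. In core cells 0 of 154 genes passed in edgeR, with 7 at unadjusted p below 0.05 (4.55%). The KO and WT values did not overlap for 129 of the 857 genes (15.1%), with 52 higher in KO (6.07%) and 77 lower (8.98%). In core cells this held for 9 of 154 genes (5.84%).

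No gene of the contractile apparatus passed between genotypes. Of 24 contractile genes 15 were tested. Their median log2 fold change was -0.09, against 0.04 over all genes tested, and in core cells it was 0.31 over 11 genes, against 0.00 over all. Summed over the list, core cells had 57096, 55264 and 54872 CPM in KO1, KO2 and KO3 and 49656, 45484 and 57822 CPM in WT1, WT2 and WT3, so the groups overlapped.

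Myl9 was the contractile gene with the smallest p. Over all smooth muscle cells it had 3866, 3102 and 3827 CPM in KO1, KO2 and KO3, against 6052, 6359 and 6580 CPM in WT1, WT2 and WT3, and the groups did not overlap. The log2 fold change was -0.69 ± 0.24 (SE; edgeR adjusted p = 0.693). In core cells Myl9 had 8515, 11865 and 8785 CPM in the KO libraries and 13396, 8197 and 14017 CPM in the WT libraries. There the groups overlapped, and the log2 fold change was -0.24 ± 0.24 (edgeR adjusted p = 0.999).

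Acta2 and Myh11, smooth muscle myosin heavy chain, helped choose the cells, so their levels are bounded by the rule and are given as a description. Over all smooth muscle cells Acta2 had 6896, 4970 and 6517 CPM in KO1, KO2 and KO3 and 7574, 11465 and 8551 CPM in WT1, WT2 and WT3. In core cells it had 16040, 18076 and 14606 CPM in the KO libraries and 17594, 15108 and 20325 CPM in the WT libraries, which overlapped. Myh11 overlapped between the genotypes in both sets, with 11089, 9476 and 6113 CPM in core cells of the KO libraries and 9913, 9322 and 8410 CPM in those of the WT libraries.

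Sparcl1, a matrix-associated glycoprotein related to SPARC, did not overlap in either set. Over all smooth muscle cells it had 6871, 3936 and 6446 CPM in KO1, KO2 and KO3 and 8473, 15319 and 9473 CPM in WT1, WT2 and WT3. In core cells it had 14785, 11865 and 13874 CPM in the KO libraries and 17862, 18483 and 17101 CPM in the WT libraries. The log2 fold change was -0.81 ± 0.30 over all cells and -0.34 ± 0.21 in core cells, and neither passed (edgeR adjusted p = 0.693 and 0.999). Pfn1, profilin, which supplies actin monomers to growing filaments, had the smallest p in core cells, at -1.10 ± 0.44 (edgeR adjusted p = 0.931). Its core levels were 726, 478 and 659 CPM in the KO libraries and 1697, 964 and 1472 CPM in the WT libraries, with no overlap.

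**Figure D4:**
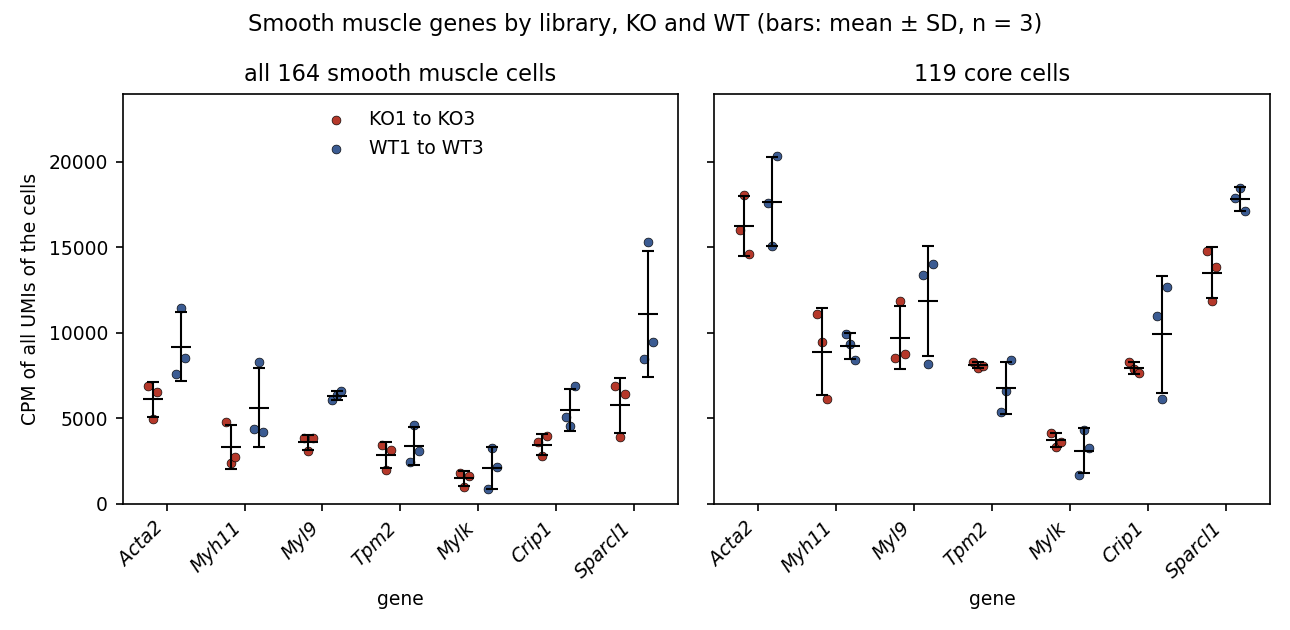
CPM by library (y axis) of 7 smooth muscle genes, of which Acta2 and Myh11 are rule genes, in KO1 to KO3 and WT1 to WT3, over all 164 smooth muscle cells in the left panel and over the 119 core cells in the right. Points are libraries and bars are mean ± SD (n = 3), and of the 7 genes only Sparcl1 has no overlap in both panels.

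Tone and matrix lists had lower medians over all cells than in core cells, and 0 members passed in either. Of 27 vasoactive and tone genes 7 were tested, at a median log2 fold change of -0.74, against -0.28 for 5 genes in core cells. Gucy1b3 had 468, 200 and 396 CPM in KO1, KO2 and KO3 and 830, 771 and 777 CPM in WT1, WT2 and WT3, with no overlap. Its log2 fold change was -1.06 ± 0.37 over all cells and -0.28 ± 0.46 in core cells (edgeR adjusted p = 0.693 and 0.999). Rgs5 had 2758, 1751 and 2985 CPM in the KO libraries and 4012, 6166 and 4031 CPM in the WT libraries, or -0.79 ± 0.31 on the log2 scale (edgeR adjusted p = 0.693), and -0.66 ± 0.37 in core cells. Of 25 vessel wall matrix genes 11 were tested, at a median of -0.32, and 7 in core cells at 0.01. Of 17 calcium and potassium genes 3 were tested, at a median of -0.22, and 2 in core cells at 0.10. Of these, Pln had -0.70 ± 0.53 over all cells and 0.01 ± 0.41 in core cells.

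Several genes with the smallest p on the higher side had most of their UMIs in the ependymal-bearing cells. Chchd10, a mitochondrial protein, had 1010, 1218 and 396 CPM in KO1, KO2 and KO3 and 242, 96.3 and 199 CPM in WT1, WT2 and WT3, 2.28 ± 0.58 higher on the log2 scale (edgeR adjusted p = 0.693). Of its 172 UMIs 148 lay in the 5 ependymal-bearing cells. Sox9, a transcription factor of glia and ependyma, had 71 UMIs, 70 of them there, and a log2 fold change of 3.01 ± 0.93. On the lower side Cdkn1a, an inhibitor of the cell cycle, had 320, 267 and 396 CPM in the KO libraries and 726, 578 and 1826 CPM in the WT libraries. Its log2 fold change was -1.62 ± 0.45 (edgeR adjusted p = 0.693), and 134 of its 196 UMIs lay in endothelial-bearing cells. Vtn, vitronectin, a pericyte gene, had -1.09 ± 0.36, with 91 of 113 UMIs in endothelial-bearing cells. Chchd10, Sox9, Cdkn1a and Vtn had too few core UMIs to be tested there.

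Stress and glucocorticoid genes did not pass either. Of 24 immediate early and stress genes 21 were tested, at a median log2 fold change of -0.20, and 13 in core cells at -0.11. Fos had 5935, 4420 and 5482 CPM in KO1, KO2 and KO3 and 6467, 8286 and 6870 CPM in WT1, WT2 and WT3, with no overlap, and -0.31 ± 0.24 on the log2 scale (edgeR adjusted p = 0.781). In core cells Fos overlapped, at 0.00 ± 0.29. Of 10 glucocorticoid-induced genes 5 were tested, at a median of -0.34, and 2 in core cells at -0.06. The chemokines Ccl7 and Cxcl10 and the cytokine Il6 had 0 UMIs.

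Lipoprotein genes were sparse. Vldlr, a receptor that IDOL marks for breakdown, had 0, 7 and 5 UMIs in KO1, KO2 and KO3 and 1, 1 and 0 in WT1, WT2 and WT3, and 7 of the 14 UMIs lay in ependymal-bearing cells. Lrp8, which encodes ApoER2, had 0, 1 and 0 UMIs in the KO libraries and 0, 0 and 1 in the WT libraries. Neither Vldlr nor Lrp8 could be tested. Apoe, the ligand, had 62, 293 and 91 UMIs in the KO libraries and 96, 6 and 22 in the WT libraries, with 449 of 570 in ependymal-bearing cells and 34 in core cells, too few to test there. Its log2 fold change was 0.88 ± 0.88 (edgeR adjusted p = 0.846), and it was -0.19 without KO2 and 2.70 without WT1. Of 17 cholesterol synthesis genes 0 had enough UMIs to be tested.

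Whether the KO effect was particular to smooth muscle cells was tested as the difference between the effect in these cells and in all other passing cells of the same libraries. By edgeR, 47 of 11275 genes passed (0.417%), 46 with a higher effect in smooth muscle cells (0.408%) and 1 with a lower one (0.00887%). Of these 47 genes, 45 had over 50% of their smooth muscle UMIs in the 5 ependymal-bearing cells, and over the 47 genes these cells held 6174 of 7013 UMIs (88.0%). Rsph1, a radial spoke protein of motile cilia, had all of its 110 UMIs there, with 32, 65 and 8 in KO1, KO2 and KO3 and 5, 0 and 0 in WT1, WT2 and WT3. Its difference in log2 fold change was 3.83 ± 0.70 (edgeR adjusted p = 0.000226).

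Without the ependymal-bearing cells 1 gene passed, and with core cells alone 0 passed, with 164 at unadjusted p below 0.05. Leaving out 1 library at a time gave 9 genes (KO1 out), 14 (KO2 out), 34 (KO3 out), 144 (WT1 out), 31 (WT2 out) and 0 (WT3 out). Against the pericyte gate in place of all other cells, 0 passed. The gene that remained without the ependymal-bearing cells was Cytl1, a secreted cytokine-like protein, whose 43 UMIs all lay in endothelial-bearing cells. The KO libraries had 0, 2 and 29 of them and the WT libraries 0, 0 and 12. Ogn, osteoglycin, a matrix proteoglycan, was the gene with the lower effect. It had 11, 6 and 21 UMIs in smooth muscle cells of KO1, KO2 and KO3 and 8, 5 and 13 in those of WT1, WT2 and WT3, and 29 of its 64 UMIs were in core cells. In other cells Ogn stood at 70.0, 19.0 and 130 CPM in the KO libraries and 6.53, 43.2 and 13.8 CPM in the WT libraries. Fibroblast-gate cells numbered 10, 7 and 48 in the KO libraries and 5, 11 and 4 in the WT libraries, and their part in the result was not tested.

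**Figure D5:**
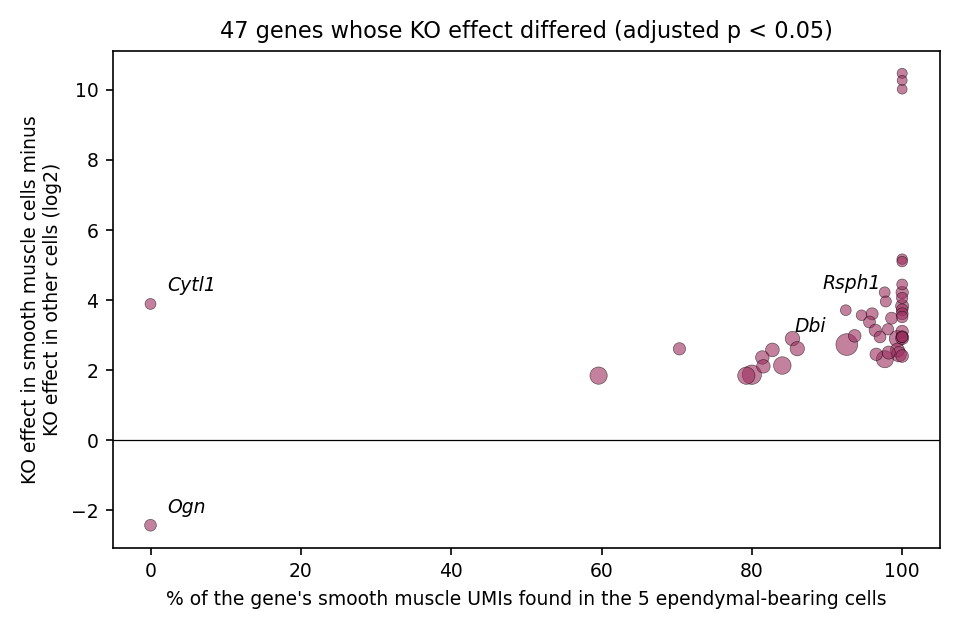
Each point is 1 of the 47 genes whose KO effect differed between smooth muscle cells and other cells, with the percent of its smooth muscle UMIs in the 5 ependymal-bearing cells on the x axis and the difference of the KO effect (log2) on the y axis. Point size follows the number of UMIs, and 45 genes lie above 50%, leaving Cytl1 and Ogn at 0%.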

How the data were processed

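The authors deposited 1 table of raw counts (UMIs of each gene in each barcode) for all 6 libraries (18204 genes, 13994 barcodes). The submitters' processing notes name bcl2fastq, STAR 2.5.0c and the builds mm10 and GRCm38. The counting program, annotation, strand and barcode rule are not given in the sources used here. Gene symbols were matched to GENCODE M21 for coordinates (93.9% matched). Members and gene lists were chosen with earlier results of these data known.

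Smooth muscle cells held 40606, 59956 and 98505 UMIs in KO1, KO2 and KO3 and 28914, 10379 and 55315 in WT1, WT2 and WT3. Counts were summed per library, since cells are not replicates, and tested with edgeR 4.0.16 in R 4.3.3 (filterByExpr, TMM, quasi-likelihood F-test, Benjamini-Hochberg at 0.05). The difference between smooth muscle and other cells was an interaction term with library as a block. In both tests Mylip was kept whatever the filter said, if it had a UMI. DESeq2 1.42.0 was an alternative. Levels are CPM of all UMIs. Standard errors were derived from the F statistic as |log2 fold change| / √F. Limits for counts of 0 use 3 counts and cover counting error only. Scrublet in scanpy 1.11.5 called doublets per library, which stayed in. On simulated counts for the KO comparison, 83.5% of 200 genes changed by 2 on the log2 scale were recovered among 856 genes, with 4 false calls. The simulation gave every gene the same spread, below the common spread fitted in the data, and held no deep single cells. Recovery in the data may thus be lower, and core cells were not simulated.

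Named genes were the rule genes, Mylip with its targets, the 8 smallest p each way, the 25 highest ratios over other cells, the most abundant members and smallest p of each list, and the 8 genes each way against the pericyte gate. Outside that rule, and chosen after their values were seen, are Notch3, Gucy1a3, Pde5a, Npy1r, Ednra, Myocd, Srf, Cytl1, Ogn, Rsph1 and 4 more interaction genes, the capillary pericyte markers and the genes listed at 0. Promoter sequences are from RefSeq (GRCm38.p6). Alternatives changed the test, scaling, gene filter, cell filter, rule threshold, member kind and libraries.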

Additional observations from a re-analysis of the deposited data

Results flagged for a closer look

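The KO effect differed between smooth muscle cells and other cells for 47 genes, by an edgeR interaction test. The smallest p-values belonged to Rsph1 (difference of log2 fold changes 3.83), Dbi (2.73), 1700009P17Rik (4.22), Ccdc153 (2.90) and Mt2 (2.90). Of their smooth muscle UMIs, 100% of Rsph1, 92.6% of Dbi, 100% of 1700009P17Rik, 99.4% of Ccdc153 and 85.4% of Mt2 lay in the 5 ependymal-bearing cells, 4 of which were in KO libraries. Cytl1 differed by 3.89 and had no UMI in those cells or in core cells. Ogn differed by -2.43, and its level in other cells varied from 19.0 to 130 CPM among KO libraries and from 6.53 to 43.2 CPM among WT libraries.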

How the results depend on the processing

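Of 268 alternative values for the named genes between KO and WT, 265 kept their direction and side of the threshold. Without a gene filter Chchd10 and Sox9 passed, and the log2 fold change of Apoe was -0.19 without KO2 and 2.70 without WT1. The count of genes passing between KO and WT, 0, was 16 of 12898 tested without a gene filter. It was 6 of 659 with at least 5 rule-gene UMIs (Ccdc153, Dbi, Hsp90aa1, Mt2, Nnat and Tmem212). All were higher in KO, and each had at least 79.3% of its smooth muscle UMIs in ependymal-bearing cells. The threshold of 5 drops 1 ependymal-bearing cell of KO1 and the only such cell of a WT library, in WT1. Leaving WT1 out drops the latter too. The count was 0 under all other alternatives run, including each library left out, the ependymal-bearing cells removed and core cells alone. The 47 genes of the interaction test became 0 to 144 with 1 library left out (9 with KO1 out, 14 with KO2 out, 144 with WT1 out, 31 with WT2 out, 0 with WT3 out). They became 142 with at least 5 rule-gene UMIs, 0 against the pericyte gate (1074 genes tested), 1 without the ependymal-bearing cells and 0 in core cells. The median UMIs per cell, 198 lower in KO, were 268 higher in KO with at least 500 genes per cell. Left-out libraries moved the share difference from 0.137 to 1.04 percentage points.

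Whether the replicate numbers pair the libraries could not be decided from so few values. Same-number correlations were 0.073, -0.160 and 0.421, and those between different numbers ran from -0.405 to 0.399. With the replicate block 0 genes passed and 61 had an unadjusted p below 0.05. The share difference stayed at 0.657 percentage points (exact sign-flip p = 0.25, the smallest possible). The interaction test has library as its block already, so no replicate block was run there.

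Depth is a limit. Core cells held 86713 UMIs over 6 libraries, 154 genes passed the filter on low counts in them, and sparse receptors, Mylip and Cnn1 were not compared between genotypes there.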
